A study of Mus musculus with 2 samples.

Results

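The gamma and delta segments of the T cell receptor were examined in RNA with a polyA tail from regulatory T cells that had experienced inflammation. A segment was a member when its GENCODE M21 symbol began with Trg or Trd followed by v, d, j or c and its gene type was a T cell receptor type, which gave 16 genes of 55536. The members are 11 delta genes (the constant gene Trdc, 6 variable, 2 diversity and 2 joining segments) and 5 gamma genes (the variable segment Trgv2 and 4 joining segments). The symbol rule is narrower than the gamma locus, because the other 10 gamma segments, all constant genes included, carry symbols that begin with Tcrg- in this annotation. Those 10 were kept apart as a neighbouring list.

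Both libraries came from primary cells of 1 male donor mouse, 7 weeks old, described as originating from activated regulatory T cells. The labels name no strain, genotype or agent and do not say how inflammation was brought about. They number a single biological replicate and 2 technical ones, written as library 1 and library 2. No condition could therefore be compared, and an SD (n = 2) measures the spread between 2 libraries of 1 biosample, not between animals. The identity genes of the label were present in both libraries, with Foxp3 at a TPM (a level per transcript length, scaled to a common library total) of 87.3 and 87.4 and Cd4 at 484 and 490.

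T cells carry 1 of 2 kinds of antigen receptor, an alpha and beta chain or a gamma and delta chain. Each chain is assembled in the developing thymocyte by joining variable (V), joining (J) and, for beta and delta, diversity (D) segments, and the product is spliced to a constant gene. Regulatory T cells use alpha and beta chains. The delta segments lie inside the alpha locus on chromosome 14, so a V-to-J rearrangement of alpha deletes the delta segments between them. The gamma locus on chromosome 13 is separate, and its rearranged genes can persist in alpha beta T cells, where they are largely silent.

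The joining and diversity segments are shown first, because their length sets what a read could count. They are GENCODE M21 transcripts (mm10), 5′ to 3′, each a single exon, and capitals mark TTTGNNNNNGG. In J segments these letters run from the codon of the conserved phenylalanine to that of the conserved glycine of the J motif. For Trdd1 the shorter of its annotated transcripts is printed, which has 9 bases against 11.
Trgj1 (chr13:19210343-19210402, plus strand): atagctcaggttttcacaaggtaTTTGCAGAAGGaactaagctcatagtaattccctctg
Trgj2 (chr13:19311245-19311304, minus strand): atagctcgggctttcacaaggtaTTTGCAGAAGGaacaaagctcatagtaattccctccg
Trgj3 (chr13:19257117-19257176, plus strand): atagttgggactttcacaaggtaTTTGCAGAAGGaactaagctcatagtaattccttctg
Trgj4 (chr13:19342152-19342212, plus strand): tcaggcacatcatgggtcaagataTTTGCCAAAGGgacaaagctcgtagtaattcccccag
Trdj1 (chr14:54123138-54123188, plus strand): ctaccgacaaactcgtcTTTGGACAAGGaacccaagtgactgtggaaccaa
Trdj2 (chr14:54136779-54136837, plus strand): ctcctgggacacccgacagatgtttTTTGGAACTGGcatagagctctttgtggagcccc
Trdd1 (chr14:54113468-54113476, plus strand): atggcatat
Trdd2 (chr14:54122226-54122241, plus strand): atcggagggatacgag

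Trgj1 and Trgj2 differed at 4 of 60 bases, and Trgj3 differed from each of them at 6 bases. TTTGNNNNNGG was found on the given strand in 6 of 6 member J segments, in 50 of 70 J genes of all T cell receptor loci (71.4%) and in 1 of 10 J pseudogenes. It stood in the first 60 bases of 1.53% of the 141231 other transcripts of that length (2.62% on either strand). A match describes these letters only.

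In the deposited tables, length minus effective length was 49 for 99.9% of genes, so a read was treated as 50 bases long. A gamma J segment of 60 bases then has 11 places where a whole read can start, Trdj1 has 2, Trdj2 has 10, and the D segments have none. Each segment is annotated as a transcript of its own, so a read across a rearranged junction lies in full in no annotated transcript. Counts of J and D segments therefore describe reads inside the segment and not the use of that segment in a receptor.

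The 3′ ends of the V segments are the ends that are joined, and those of the V members tested further on are printed with Trdv2-1, the close copy of Trdv2-2. Each line is the last 45 bases of the second exon, and capitals mark TANNNNTGN, which here covers the tyrosine codon, the next codon and the conserved cysteine codon where the third complementarity-determining region begins.
Trdv1 (chr14:53882173-53882217, plus strand): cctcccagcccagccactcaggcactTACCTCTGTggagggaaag
Trdv2-1 (chr14:53946616-53946660, plus strand): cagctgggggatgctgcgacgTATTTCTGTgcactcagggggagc
Trdv2-2 (chr14:53961558-53961602, plus strand): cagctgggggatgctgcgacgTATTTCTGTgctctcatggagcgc
Trdv4 (chr14:54075471-54075515, plus strand): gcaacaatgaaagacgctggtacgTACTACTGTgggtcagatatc
Trgv2 (chr13:19336573-19336617, minus strand): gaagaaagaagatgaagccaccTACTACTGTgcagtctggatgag

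TANNNNTGN was found on the given strand in 7 of 7 member V segments and in 142 of the 144 V genes of all loci (98.6%), against 15.7% of the last 45 bases of other transcripts (28.2% on either strand). Over their last 296 bases Trdv2-1 and Trdv2-2 differed at 6 positions, and their longest shared run was 221 bases. Neither motif was chosen without sight of the sequences.

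The members were rare in both libraries. Together they held 220.9 expected counts in library 1 and 292.6 in library 2, out of 26593267 and 22036331. That is 8.31 and 13.3 CPM (counts scaled to a common library total), with a mean of 10.8 ± 3.51 (SD, n = 2). In bulk RNA, fewer cells that transcribe a gene and less RNA per cell cannot be told apart.

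A gene was called detected when neither library had a TPM under 1. Of the 16 members 3 were detected (24.7% of all 55536 genes were), namely Trdc, Trdv1 and Trdv2-2. Library 1 alone had 3 members at that level (27.7% of all genes) and library 2 alone had 9 (34.5%). These 9 include the 4 gamma J segments, where 1 count gives a TPM of 6.14 to 6.70, so that any count passes the threshold. A further 6 members had 0 counts in both libraries, namely Trdv2-1, the pseudogene Trdv3, Trdd1, Trdd2, Trdj1 and Trdj2. Another 6 had counts in library 2 only, and 1 had counts in library 1 only. A count of 0 allows up to 3 counts, 0.113 CPM in library 1 against 0.136 in library 2. This limit does not hold for Trdv2-1, whose 0 rests on how reads shared with Trdv2-2 were split. For the D segments a 0 carries no information, because no whole read could fall inside them.

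**Figure D1:**
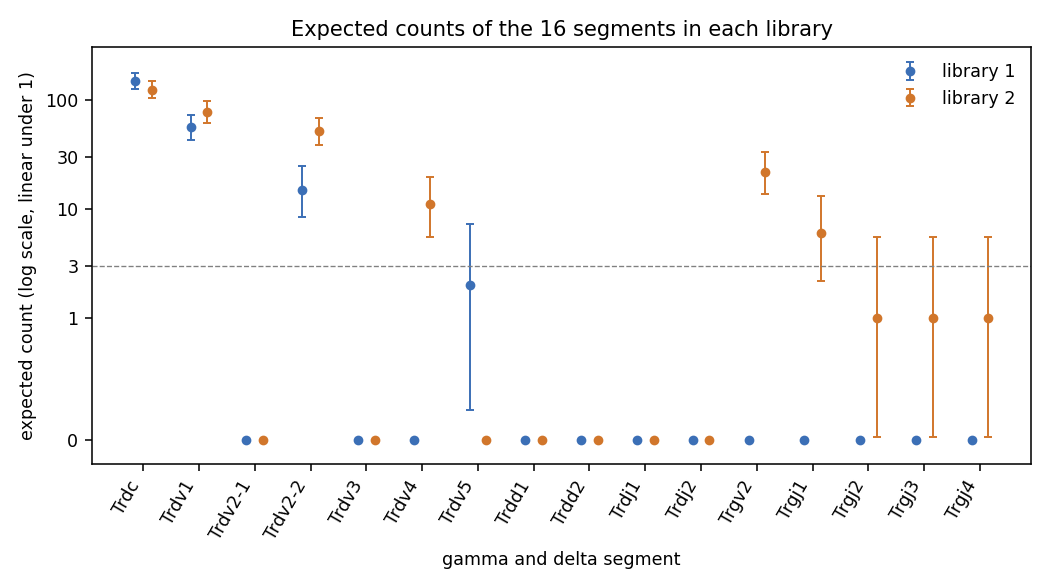
Expected counts (vertical axis, log scale that is linear under 1) of the 16 members in library 1 (blue) and library 2 (orange). Bars are 95% Poisson intervals for counts above 0, and the dashed line marks the 3 counts that a count of 0 allows. Trdc, Trdv1 and Trdv2-2 have counts in both libraries, and all 5 gamma members are at 0 in library 1.

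Trdc, the delta constant gene (ENSMUSG00000104876.1, chr14:54142851-54148868, plus strand, 4 exons), was the member with the most counts. It held 148 counts in library 1 (95% Poisson interval 125.1 to 173.9) and 123 in library 2 (102.2 to 146.8). The CPM was 5.57 and 5.58, so both libraries stood at the same level. Their log2 ratio was 0.01, which did not pass the test between libraries (adjusted p = 1, exact binomial test with Benjamini-Hochberg adjustment over all genes tested).

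Per length, Trdc stood low, with a TPM of 2.34 and 2.38 (2.36 ± 0.0283, SD, n = 2). This placed it at the 10.6 percentile of the detected genes. Trac, the alpha constant gene that follows the delta genes in the same locus, had a TPM of 2957 and 2903, or 1264 and 1220 times that of Trdc. The annotated Trdc transcript is 3865 bases long, and its longest exon alone holds 3403 of them. Of its 3785 different windows of 50 bases, 94.1% were found in no other annotated gene on either strand. The largest number of shared windows, 158, was with Trdv5, which overlaps the last exon on the opposite strand over 207 exon bases. Whether the counting used strand is not stated, so reads in that overlap cannot be assigned.

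Trdv1 was the delta V segment with the most counts (ENSMUSG00000076864.9, chr14:53881612-53882217, plus strand, 2 exons). It had 56 counts in library 1 (42.3 to 72.7) and 77 in library 2 (60.8 to 96.2), at a TPM of 11.7 and 19.7 (15.7 ± 5.65, SD, n = 2). The authors' own intervals of the TPM, as deposited, were 8.34 to 14.01 and 14.30 to 22.2 and narrowly did not overlap. Such an interval need not hold the printed TPM, since that of Trac in library 1 was 2665 to 2739 beside a TPM of 2957. The gap was therefore not read as a test. All counts were assigned to the longer of its 2 annotated transcripts, which differ by 3 bases. Every one of its 337 windows of 50 bases was found in no other gene.

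Trdv2-2 (ENSMUSG00000076866.3, chr14:53960944-53961602) had 14.9 expected counts in library 1 and 51.0 in library 2, at a TPM of 2.58 and 10.8. Its close copy Trdv2-1 (ENSMUSG00000076865.6) had 0 in both. Only 47.4% of the windows of Trdv2-2 and 43.4% of those of Trdv2-1 were found in no other gene, because 183 windows were shared between them. The antisense gene Gm43647 held 131 windows of Trdv2-2 and 144 of Trdv2-1 on the opposite strand. The split between the 2 copies is therefore uncertain. The deposited posterior mean count of Trdv2-2 was 10.5 with a posterior SD of 3.64 in library 1, and 42.6 with 4.93 in library 2. In the same deposited columns Trdv2-1 had a posterior mean of 5.98 with an SD of 3.68 in library 1, and 7.29 with 4.77 in library 2, so some of these reads may belong to either copy. In the small gene table, a second deposited table of whole-number counts, it had 8 and 23.

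The remaining delta V segments were at or near 0. Trdv4 (ENSMUSG00000076867.2, chr14:54074905-54075515) had 0 counts in library 1 and 11 in library 2, a TPM of 0 and 2.05. Trdv5 (ENSMUSG00000076873.2, chr14:54148662-54149294, minus strand), which lies behind the constant gene in inverted orientation, had 2 and 0. Among delta V counts Trdv1 took 76.8% in library 1 (95% Wilson interval 65.8 to 84.9) and 55.4% in library 2 (47.1 to 63.4), while Trdv2-2 took 20.4% (12.9 to 31.2) and 36.7% (29.1 to 44.96). Intervals cover counting error only.

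**Figure D2:**
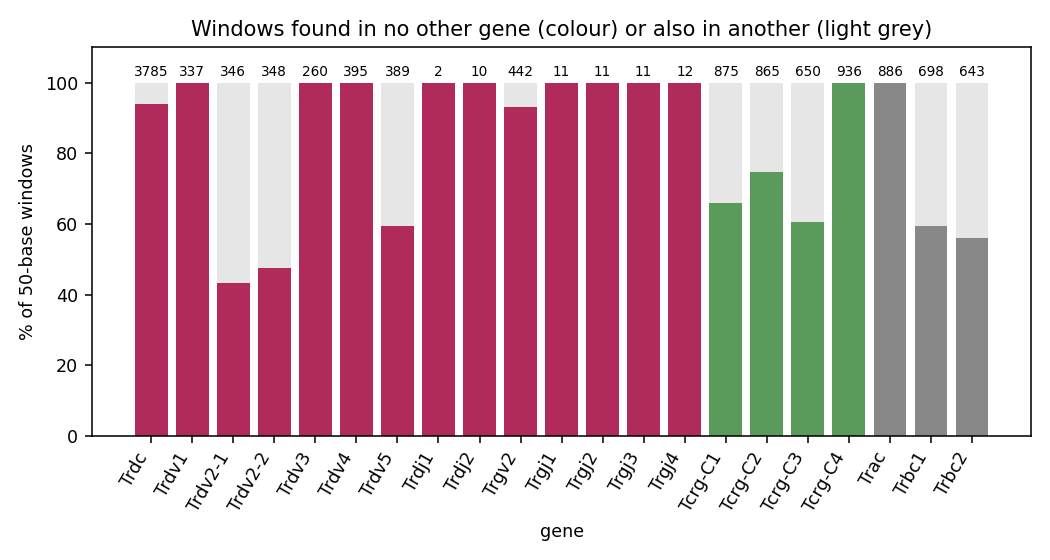
Percent of the different 50-base windows of each gene (vertical axis) that were found in no other GENCODE M21 transcript on either strand, with the number of windows above each bar. Trdv2-1 and Trdv2-2 have the lowest shares among the members (red), the gamma constant genes Tcrg-C1, Tcrg-C2 and Tcrg-C3 (green) share windows with each other, and the alpha and beta constant genes are in grey. The D segments have no window and are not drawn.

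All 5 gamma members were at 0 in library 1 and above 0 in library 2. So were 3328 of all 24253 genes tested, against 455 the other way. Of the 5, only Trgv2 had the counts for the test. Trgv2 (ENSMUSG00000076754.2, chr13:19336573-19337167, minus strand, 2 exons), a V segment on the strand of Trgj2, had 0 and 21.6 counts, a TPM of 0 and 3.6. The small table gave 0 and 21. Against the 3 counts that a 0 allows, the count of Trgv2 was 8.68-fold higher in library 2, without the counting error of library 2. Of its windows, 93.0% were found in no other gene, and 31 were shared with Tcrg-V1.

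Among the gamma J segments, Trgj1 had 0 and 6 counts, and Trgj2, Trgj3 and Trgj4 each had 0 and 1. The TPM of these short segments is large for few reads. The 6 counts of Trgj1 gave a TPM of 40.2, above that of Trdv1 with 77 counts, with a deposited interval of 13.98 to 73.03. In library 2, 1 count was worth a TPM of 6.70 for Trgj1 and 0.256 for Trdv1. Trgj2 and Trgj3 thus stood at 6.70 and Trgj4 at 6.14, each from 1 read, and none of the 4 had the counts for a test.

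The libraries were compared gene by gene with an exact binomial test, which asks whether 2 libraries differ by more than counting error and not whether conditions differ. With at least 10 counts summed over both libraries, 5 of the 16 members were tested. Of these, 4 passed at an adjusted p under 0.05 and all 4 were higher in library 2, while Trdc did not pass. Over all 24253 genes tested 70.3% passed, with 46.4% of all tested higher in library 2 and 23.9% higher in library 1, so a call is the usual outcome here. Among the 14103 genes tested with fewer than 300 counts, the range in which all 5 members lay, 69.1% passed and 54.3% were called higher in library 2. Trgv2 and Trdv4 reached the minimum through library 2 alone, which fixed their direction. Of the 4, only Trdv1 and Trdv2-2 had counts in both libraries.

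The 4 differences had different sizes. Trdv1 was 1.66-fold higher in library 2 (log2 ratio 0.73, adjusted p = 0.00648, exact binomial test, adjusted over all genes tested). Trdv2-2 was 4.03-fold higher (log2 ratio 2.01, adjusted p = 5.19e-07, exact binomial test). Against the 3 counts that a 0 allows in library 1, Trdv4 was 4.42-fold higher (adjusted p = 0.000332, exact binomial test). Trgv2 was 8.68-fold higher on the same basis (adjusted p = 9.61e-08, exact binomial test). Both folds leave out the counting error of library 2, so they are not lower limits.

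The same direction held for these 4 in the small table, where 54.3% of 14432 genes passed and 32.2% were higher in library 2. The small table describes the same 2 libraries, so this was not an independent test. Trdv4 and Trgv2 had 0 counts in library 1 of the small table as well, which fixed their direction. Trdv1 had 52 and 78 counts there and Trdv4 had 0 and 14. Trdc and the J and D segments are not listed in the small table, which held 6 of the 16 members. Summed over all 16, the members were 1.60-fold higher in library 2 (95% binomial interval 1.34 to 1.92, log2 ratio 0.68). Without Trdc the log2 ratio of the sum was 1.48, so the summed ratio depends on that gene, which holds most of the counts of library 1.

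**Figure D3:**
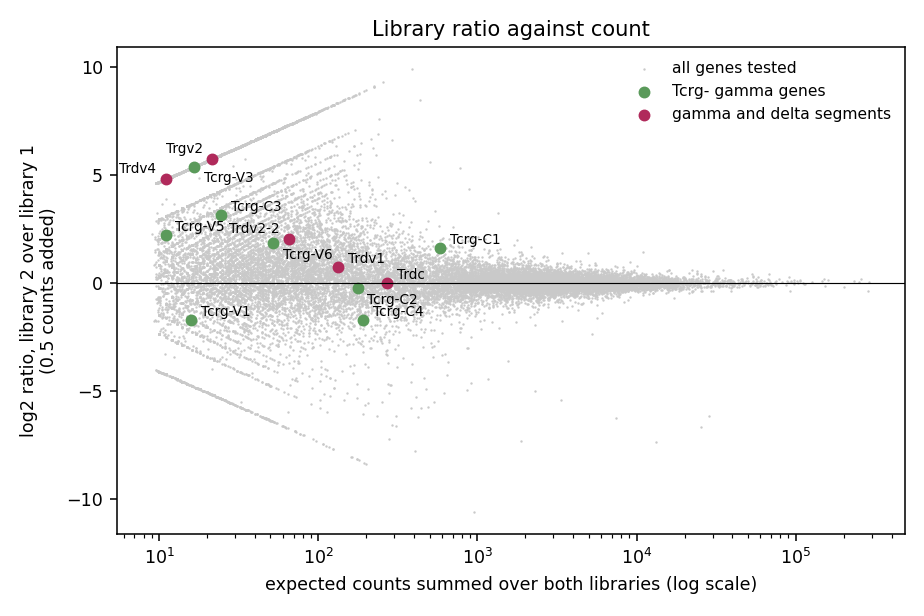
Log2 ratio of library 2 over library 1 (vertical axis, 0.5 counts added to each library) against expected counts summed over both libraries (horizontal axis, log scale) for all genes tested (grey), the 5 members tested (red) and the 8 Tcrg- genes tested (green). Trdc lies at 0, Trdv1 and Trdv2-2 lie above it, and Trdv4 and Trgv2 lie on the upper edge formed by genes with 0 counts in library 1.

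The neighbouring gamma genes with Tcrg- symbols showed which V and constant genes the gamma members stood beside. The constant genes held most of the counts. Tcrg-C1, the constant gene behind Trgj1, had 163.9 and 416.7 counts, at a TPM of 11.3 and 35.1. Tcrg-C4, behind Trgj4, had 153 and 38, at a TPM of 9.85 and 2.99. Tcrg-C2, behind Trgj2, had 104.5 and 72.4 counts, and Tcrg-C3, behind Trgj3, had 2.57 and 21.8. Tcrg-C1 was thus higher in library 2 (log2 ratio 1.61, adjusted p = 1.63e-36, exact binomial test), Tcrg-C4 was higher in library 1 (log2 ratio -1.72, adjusted p = 1.83e-12, exact binomial test), and Tcrg-C2 did not pass (log2 ratio -0.26, adjusted p = 0.309, exact binomial test).

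Gamma constant genes other than Tcrg-C4 are hard to separate. Only 65.8% of the windows of Tcrg-C1, 74.6% of those of Tcrg-C2 and 60.5% of those of Tcrg-C3 were found in no other gene, against 100% for Tcrg-C4. Of the Tcrg- V segments, Tcrg-V6 had 13 and 39 counts, Tcrg-V1 had 13 and 2.86, Tcrg-V3 had 0 and 16.6, Tcrg-V5 had 2 and 9, Tcrg-V4 had 0 and 6, and Tcrg-V7 had 0 in both. Of the 8 Tcrg- genes tested, 5 were higher in library 2, 1 was higher in library 1 and 2 did not pass, and with TMM scaling or DESeq2 size factors 2 were higher in library 1 (29.4% and 30% of all genes tested were).

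Delta and gamma constant genes together held 0.604% of the counts of all T cell receptor constant genes in library 1 (95% Wilson interval 0.556 to 0.655) and 0.873% in library 2 (0.810 to 0.941), a mean of 0.738 ± 0.190% (SD, n = 2). The delta part, Trdc, was 0.156% (0.133 to 0.183) and 0.160% (0.134 to 0.191), and the gamma part was 0.448% (0.407 to 0.492) and 0.713% (0.656 to 0.775). The rest was Trac, Trbc1 and Trbc2. The intervals of the delta part overlapped between the libraries, and those of the gamma part did not.

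The share depended on the table. In the small table, which does not list Trdc, the 4 gamma constant genes held 8.24% of the constant counts in library 1 (7.28 to 9.32) and 8.32% in library 2 (7.34 to 9.41). In the large table, with Trdc left out of the sum, the same genes held 0.448% and 0.714%. The abundant genes had far fewer counts in the small table. Trac had 1288 and 1247 there, 3.49% and 4.19% of its expected counts, whereas Trdv1 had 92.9% and 101% of its own. The total of the small table was 29.7% and 31.6% of that of the large one. How the small table was counted is not stated, and the cause of this difference was not tested.

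**Figure D4:**
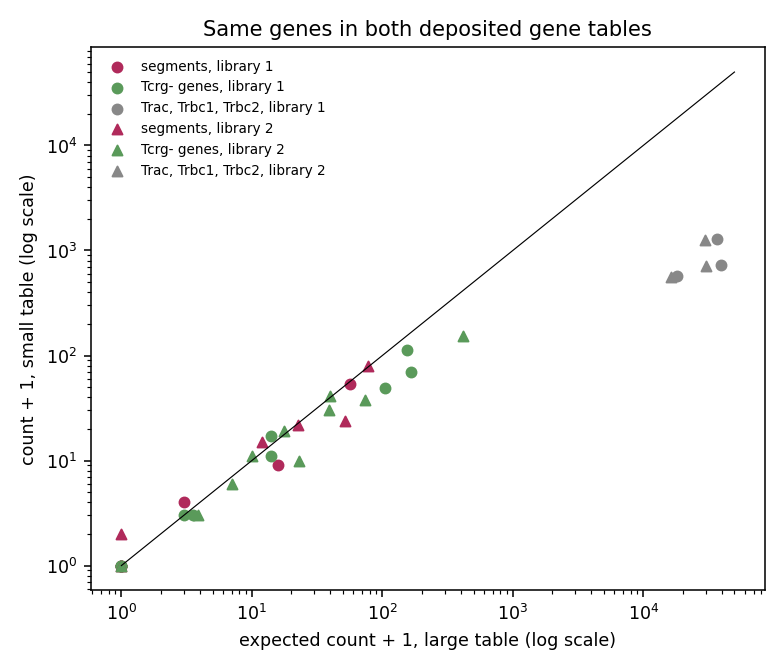
Counts of the same genes in the small table (vertical axis, 1 added, log scale) against expected counts in the large table (horizontal axis, 1 added, log scale), with circles for library 1 and triangles for library 2. The line marks equal values. The members (red) lie near the line, with Trdv2-2 below it, while Trac, Trbc1 and Trbc2 (grey) lie far below it.

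Other genes of receptor assembly were counted as lists. All 7 genes of the T cell receptor complex list were detected (24.7% of all genes were). The list had a median TPM of 1163 and was led by Trbc2, Trac and Trbc1 (mean TPM 3571, 2930 and 1782). Cd3d and Trbc1 were higher in library 2, and Cd3e, Trbc2 and Trac were higher in library 1 (46.4% and 23.9% of all genes tested). The median log2 ratio was -0.0039, against 0.0087 over all detected genes and 0.23 over all genes tested, many of which have few counts. With TMM scaling the split was 0 and 4 (41.1% and 29.4% of all genes tested), and with DESeq2 size factors it was 0 and 5 (40.6% and 30%).

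None of the 4 genes of the recombination and pre-receptor list was detected in both libraries. Rag1 and Rag2, which together cut the segments at their recombination signals, had 0 and 24 counts and 0 and 0. Dntt, which adds bases at the junctions, had 74 and 26 counts, at a TPM of 2.22 and 0.96. Ptcra, the pre-T cell receptor alpha chain, had 1.02 and 9. Of the 3 tested, Rag1 and Ptcra were higher in library 2 and Dntt was higher in library 1, where 46.4% and 23.9% of all genes tested were. Rag1 reached the minimum of 10 counts through library 2 alone and Ptcra nearly so, which fixed their direction, and the median log2 ratio of all genes tested with fewer than 300 counts was 1.29.

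All 12 genes listed as regulators of the gamma locus were detected (24.7% of all genes were). The list had a median TPM of 105.0 and was led by Tcf7 (1053), Id2 (675) and Lef1 (319), which encode transcription regulators of T cell development. The test called 6 higher in library 2, 4 higher in library 1 and 2 neither (median log2 ratio 0.10). Of all genes tested 46.4% and 23.9% were called higher in library 2 and in library 1. With TMM scaling the split was 5 and 5 (41.1% and 29.4% of all genes tested). With DESeq2 size factors it was 5 and 6 (40.6% and 30%), and the median log2 ratio was -0.008.

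Marker genes of gamma delta T cells were low and uneven. Of 8 markers reported 3 were detected in both libraries (24.7% of all genes were). The summed TPM of all 8 was 12.1 in library 1 and 18.7 in library 2. Sox13, a transcription factor of early gamma delta cells, had 0 and 1 counts, and Il23r had 0 and 9. The scavenger receptor gene 5830411N06Rik stood at a TPM of 5.36 and 10.01 (248 and 431 counts), its relative Cd163l1 at 0.06 and 0.95 (3 and 41 counts), Zbtb16 at 0.27 and 0.96, and Il17a at 0.05 and 0.79. These 4 of the 6 markers tested were higher in library 2, as were 46.4% of all genes tested and 54.3% of those with fewer than 300 counts. The median log2 ratio of the 6 was 1.42, beside 1.29 for genes with fewer than 300 counts and 0.23 for all genes tested. 5830411N06Rik and Etv5 had more than 300 counts in sum, so the 1.29 does not cover them. Cd163l1 and Il17a reached the minimum through library 2 alone.

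Of the other markers, Il23r and Sox13 had too few counts for the test. Etv5 was higher in library 1 (TPM 3.79 and 3.29), and Blk (2.59 and 2.36) did not pass the test. Several of these genes are also transcribed in other cells, such as Blk in B cells and Zbtb16, Il17a and Il23r in other T or innate lymphoid cells.

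**Figure D5:**
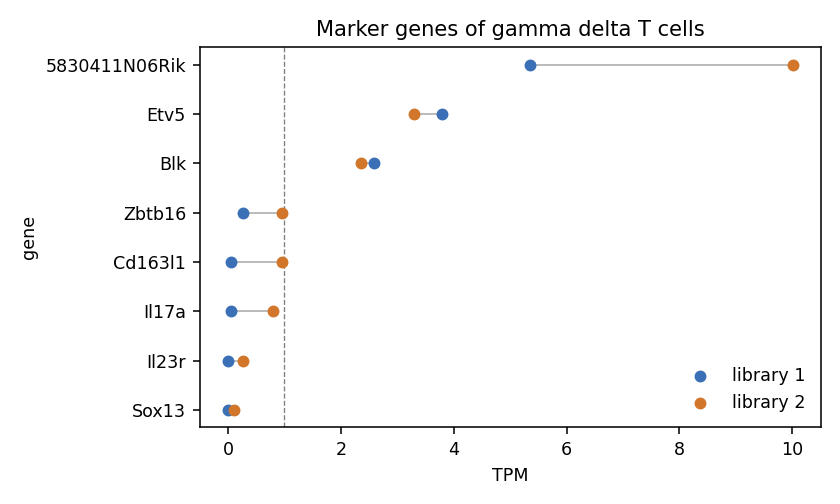
TPM (horizontal axis) of the 8 gamma delta T cell markers in library 1 (blue) and library 2 (orange), with the dashed line at a TPM of 1. The gene 5830411N06Rik is highest in both libraries, and Sox13, Il23r, Il17a, Cd163l1 and Zbtb16 lie under 1 in both.

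Markers of other cell types moved between the libraries as well. The summed TPM of 4 macrophage markers was 5.92 and 44.1, that of 5 NK cell markers 159 and 241 (Nkg7 alone 153 and 233), and that of 4 innate lymphoid markers 45 and 75.4, all larger in library 2. Single members went the other way, since Il17rb was higher in library 1 (9.04 and 7.26), and Klrb1c stood at 4.26 and 3.75 without passing the test. Those of 3 erythroid markers (4817 and 56.6), 3 B cell markers (88.5 and 67.2) and 2 CD8 T cell markers (27.0 and 13.5) were larger in library 1. Of 4 regulatory T cell markers, Ikzf2 (TPM 214 and 185) and Ctla4 (84.1 and 66.55) were higher in library 1 and Il2ra did not pass. Foxp3 was called higher in library 1 by counts (log2 ratio -0.08, adjusted p = 0.0329, exact binomial test), but its TPM was 87.3 and 87.4. Of all genes tested 23.9% were higher in library 1. With TMM scaling or DESeq2 size factors all 4 markers were (29.4% and 30% of all genes tested). The defining NK cell gene Ncr1 had 0 and 5 counts, Klra8 had 0 in both, and Kit had 1 and 437. The part of these cells in the values of Trdv1, Trdv2-2, Trdv4 and Trgv2 was not tested.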

How the data were processed

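Polyadenylated RNA was sequenced in 2 technical libraries of 1 biological replicate. Per the file headers and the deposited description, the authors derived expected counts, TPM and FPKM per gene and per transcript from transcriptome alignments (mm10, GENCODE M21), with posterior means, posterior SDs and intervals, and the share of each transcript within its gene, in percent. A separate deposited table gives whole-number counts per gene on mm10 with GENCODE M4. These files are called the large and the small table. Which aligner and quantifier the authors ran, and how they treated duplicate reads, is not given in the sources used.

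All 55536 gene identifiers matched GENCODE M21. Rows that name no gene (26345, with 53642 and 51825 counts) were left out. Library totals were 26593267 and 22036331 expected counts, and 7911181 and 6972139 in the small table. Expected counts were rounded for tests. The exact 2-sided binomial test (scipy 1.17.1, at least 10 counts summed, Benjamini-Hochberg over all genes tested, adjusted p under 0.05) compares 2 libraries. The libraries differed beyond counting error (chi-square per degree of freedom 33.5) and were kept apart. Copies made by PCR are not independent, and intervals and floors cover counting error only. On simulated Poisson counts of 55536 genes the test called 96 of 100 genes changed 1.5-fold, 100 of 100 changed 2-fold and 4 unchanged genes. The changed genes were drawn from those with at least 100 expected counts in the smaller library. Trdv1, Trdv2-2, Trdv4 and Trgv2 had fewer, and the simulation held counting error only, so these rates do not carry over to them or to these libraries. Ratios had 0.5 counts added to each library. Windows of 50 bases were searched in all GENCODE M21 transcripts on both strands.

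The members, gene lists and tests were chosen with earlier results of these data known. Named were members with at least 10 counts summed over both libraries and all constant and J genes. Members at or near 0 were also named, after their values were seen. From each pathway list the 3 members with the highest mean TPM and those under a TPM of 1 were named. The other genes of the receptor complex list were named outside this rule, with their test outcome. A marker gene of the gamma delta T cell list is not reported here and was left out of its sums and counts. Alternatives were TMM (edgeR 4.0.16), DESeq2 1.42.0 size factors, other thresholds, FPKM, each library alone and the small table.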

Additional observations from a re-analysis of the deposited data

How the results depend on the processing

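The 3 members detected became 1 at a TPM threshold of 5 and 1 in the small table (at least 10 counts in each library), and stayed 3 at a threshold of 0.1, by FPKM and by 10 expected counts. By single libraries the number was 3 to 9, and the 9 include the 4 gamma J segments, which pass on any count. The 4 members with a library difference became 5 with no filter on counts, when Trgj1 passed (adjusted p = 0.0183, exact binomial test), and 3 with at least 20 counts, when Trdv4 was not tested. The number was 4 with TMM scaling, DESeq2 size factors and the small table. DESeq2 size factors moved the median log2 ratio of detected genes from 0.01 to -0.10 and TMM to -0.09. Calls over all genes were then 9844 higher in library 2 and 7275 higher in library 1, instead of 11255 and 5785.

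The constant share of 0.738% became 0.487% by TPM, and 0.604% to 0.873% by single libraries. In the small table, which does not list Trdc, the gamma constant genes alone gave 8.28%. The like value of the large table, with gamma constant genes only, was 0.581%. The summed CPM of 10.8 became 5.01 for the 6 members also in the small table, and 8.31 to 13.3 by single libraries. The log2 ratio of the sum was 1.30 in the small table, 1.40 for those 6 members in the large table and 1.48 without Trdc. The settings with those 6 members, without Trdc and with gamma constant genes only were chosen after seeing the data. Fewer genes enter their sums. The cause of the other differences was not tested. At this depth Trgj2, Trgj3 and Trgj4 rest on 1 count each. No paired analysis was possible because the 2 libraries form 1 group.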

Other observations

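A further 10 V segments of the alpha locus carry names of both chains (symbols with Trav and dv) and can be joined to alpha or delta, so their counts cannot be assigned to either. They held 590.8 counts in library 1 and 700.1 in library 2, against 72.9 and 139 in the delta V members. With neither library under a TPM of 1, 8 of the 10 were detected (24.7% of all genes were). Trav4-4-dv10 had the highest mean TPM, with 24.4 and 54.7, followed by Trav21-dv12 (9.11 and 34.1) and Trav14d-3-dv8 (18.8 and 19.96). The test covered 9 of them and called 4 higher in library 2, 2 higher in library 1 and 3 neither, where 46.4% and 23.9% of all genes tested were called. The calls of close copies are uncertain. Trav15d-1-dv6d-1 was called higher in library 2 from 0 and 17.6 expected counts, but its deposited posterior means were 16.7 (SD 9.71) and 14.4 (SD 8.13) and the small table had 3 and 1. Trav15d-2-dv6d-2, called higher in library 1, had posterior means of 37.6 (SD 21.5) and 10.03 (SD 6.04). Among all 130 alpha and beta V genes, 110 were detected in both libraries, beside the same 24.7% of all genes. The named genes were picked with their values known.

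The antisense gene Gm43647, which shares 105 exon bases with Trdv2-2 and 192 with Trdv2-1, had 9.09 and 0 counts.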
